A study of Mus musculus with 4 samples.

Results

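The enhancer CNS1, a conserved noncoding element inside the Foxp3 gene, was deleted in mice that had never met a microbiota, and the expression of CD4 T cells from these mice was set against that of germ-free reporter mice, cluster by cluster. The members were the cells that the authors had marked as kept in the germ-free Foxp3CNS1- and germ-free Foxp3GFP libraries, in every authors' cluster with at least 50 cells in both libraries. These were 7470 cells, 3516 of Foxp3CNS1- and 3954 of Foxp3GFP, of 16948 kept cells in the series. Clusters 0 to 8 entered, and cluster 9 was left out because it held 42 cells of both libraries together.

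All mice were male. Foxp3GFP mice carry a green fluorescent protein reporter at Foxp3, and Foxp3CNS1- mice lack CNS1. The germ-free groups were kept without microbes, and a second pair of groups, used here for levels alongside, had been colonized with SPF (specific-pathogen-free) stool microbes for 9 days. For each group CD4 T cells were sorted from pooled mesenteric lymph nodes of 3 mice, as a mixture of GFP-positive and GFP-negative cells in equal parts, and about 5000 cells were targeted on the 10x Chromium platform, with a kit that reads 1 end of the transcript (which end is not given for these libraries). With 1 library of pooled mice per group there was no replicate, no test between groups was possible, and genotype, mouse pool and library cannot be told apart. Intervals are at the 95% level, by the exact method of Clopper and Pearson, and take in the counting error but no difference between mice. The sources used here do not give the mice's age.

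Foxp3 encodes the transcription factor that defines regulatory T (Treg) cells. CNS1 holds binding sites for factors acting downstream of TGF-beta and antigen receptor signals, and it is known for its part in the induction of Foxp3 in naive CD4 T cells at mucosal sites, more than in the thymus. Mesenteric lymph nodes drain the intestine and are a place where such peripherally induced Treg cells arise in response to food and microbial antigens.

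The germ-free libraries were of like depth, with 9360112 UMIs over all kept cells (unique molecular identifiers, 1 per captured transcript) and a median of 2286 per cell in Foxp3CNS1- and 10746648 with a median of 2399 in Foxp3GFP. Ribosomal protein genes took 37.3% and 39.3% of the UMIs and mitochondrially encoded genes 2.45% and 2.52%. A 16-base cell barcode was present in both libraries for 18 cells, 0.509% and 0.452% of them. Cells with an immunoglobulin UMI were 61.1% and 60.9%. The summed level of 4 myeloid markers was 138 CPM (counts per 1000000 UMIs of the same cells) in Foxp3CNS1- and 111 in Foxp3GFP, that of 6 B cell or plasma cell markers 787 and 704, that of 3 CD8 or NK markers 26.3 and 22.6, and that of 5 CD4 T cell markers 4083 and 3773, with none of these markers at 0 in either library. No doublet caller was run, and the part of other cells in the results was not tested.

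The clusters kept the authors' numbers. Clusters 1 and 2 were naive-like: all 9 detected naive markers were higher in them than in the other cells, with Igfbp4 and Dapl1 among their leading genes. Clusters 3 and 6 were Treg-like, with 10 of 10 Treg markers higher, cluster 3 led by Epcam, Serpina3g and Ccl5 and cluster 6 by Gsta4, Capn3, Hopx and Il2ra. Cluster 8 was proliferating-like, with 8 of 8 markers higher, led by Pbk and Bub1, and cluster 5, led by S100a6, Anxa2 and Cxcr3, had 6 of 6 effector markers higher. Cluster 0 also had 10 of 10 Treg markers higher, but Il4 led it, and it was given no name. Clusters 4 and 7 shared leading genes such as Notch2 and Slc39a1 and stayed unnamed. The smallest cluster, 8, had 84 Foxp3CNS1- and 106 Foxp3GFP cells, and the largest, 2, had 714 and 806. The numbers of cells per cluster were not compared between libraries.

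Foxp3 itself (mm10 chrX:7573644-7595245, plus strand) was expressed in both genotypes. It had 250 CPM in Foxp3CNS1- and 229 in Foxp3GFP in cluster 3, 133 and 147 in cluster 6, and 112 and 145 in cluster 0. The naive-like clusters had 21.7 and 28.2 CPM in cluster 1 and 35.2 and 32.3 in cluster 2. Over the 9 clusters Foxp3 was higher in Foxp3CNS1- in 5 and lower in 4, with log2 ratios of Foxp3CNS1- over Foxp3GFP from -0.65 in cluster 8 to 0.75 in cluster 7. With the cluster mix held equal in both libraries (a Mantel-Haenszel ratio over clusters, called the common ratio below) its log2 value was -0.07. GFP-positive and GFP-negative cells had been mixed in equal parts for each group, so the sort set their shares. No effect of CNS1 on Foxp3 is read from these levels. A Foxp3 UMI was found in 19.9% of Foxp3CNS1- cells (interval 17.1 to 23.03) and 28.0% of Foxp3GFP cells (24.4 to 31.9) of cluster 0, at median depths of 2154.5 and 2270 UMIs. In cluster 6 the shares were 22.04% and 31.4%, at median depths of 2240.5 and 2558, and in cluster 3 they were 34.7% and 32.3%, at 1839 and 1786. For reference, the naive-like cluster 2 had 7.42% and 7.20% at 2379 and 2456.5 UMIs. These shares were not taken at equal depth, and no order is read from them. Counts per gene do not read a deletion inside an intron, and so cannot serve as a check of the genotype.

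A gene counted as measured in a cluster when it had at least 50 UMIs there over both libraries. This gave 39087 pairs of gene and cluster over 6494 genes, of which 4428 genes were measured in at least 5 clusters and 2345 in all 9. At least 2-fold higher in Foxp3CNS1- were 138 pairs, and at least 2-fold lower were 160. After thinning each cell to 1500 UMIs these counts were 110 and 61, and among cells without an immunoglobulin UMI they were 118 and 80. Most of these genes passed in a single cluster: of the 122 genes past 2-fold higher anywhere, 110 were so in 1 cluster, 8 in 2 and 4 in 3, and of the 141 genes past 2-fold lower, 129 were so in 1 cluster, 7 in 2, 4 in 3 and 1 in 5.

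Few genes were shifted alike in every cluster. At least 1.5-fold higher in each cluster that measured it was 1 gene of the 4428, Gm10076, or 0.0226%. At least 1.5-fold lower in each were 2, AY036118 and Cd55, or 0.0452%. When the size of the difference was not asked for, 148 genes, or 3.34%, were higher in all of their measured clusters, and 102, or 2.30%, were lower in all. Under the rule of at least 1.5-fold the nearest genes outside it were Otulin, whose smallest log2 difference was -0.51, and Gm11707, at 0.43. The counts moved with the processing: with each cell thinned to 1500 UMIs 0 genes were higher and 1, Tnrc6c, was lower in every cluster. Thinning also left out the cells under 1500 UMIs, and the cause was not tested. With equal weight per cell, or among cells without a Foxp3 UMI, Gm10076 was still the 1 gene higher and 0 were lower. Among cells without an immunoglobulin UMI H2-DMa was the 1 gene higher and 0 were lower.

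Cd55 encodes decay-accelerating factor, a membrane protein that limits complement on the cell surface (mm10 chr1:130439027-130462744, minus strand). Its level was 9.25 CPM in Foxp3CNS1- against 38.9 in Foxp3GFP in cluster 0, 29.9 against 50.3 in cluster 1, 21.1 against 49.9 in cluster 2, 23.6 against 43.7 in cluster 4 and 11.3 against 41.7 in cluster 6. The highest Foxp3CNS1- level among these 5 clusters lay below the lowest Foxp3GFP level. The log2 ratios ran from -2.07 (-2.95 to -1.27) in cluster 0 to -0.75 (-1.37 to -0.17) in cluster 1. The 4 clusters with too few UMIs held 19 UMIs in Foxp3CNS1- against 66 in Foxp3GFP, so that Cd55 was lower in 9 of 9 clusters, and the counting interval left out 0 in each of the 9. The UMIs were spread over many cells: in cluster 2 they lay in 36 Foxp3CNS1- and 98 Foxp3GFP cells. In the colonized libraries, which are other mice, Cd55 was lower in Foxp3CNS1- in the same 5 clusters, with log2 ratios from -1.53 to -0.23, and in 7 of 9 overall. Over the 9 clusters together it had 15.2 CPM in germ-free Foxp3CNS1-, 41.6 in germ-free Foxp3GFP, 20.9 in colonized Foxp3CNS1- and 30.9 in colonized Foxp3GFP.

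The other gene of this kind, AY036118, is an annotated long noncoding RNA on the minus strand of chr17:39847113-39848035 (mm10). It lies inside Gm42418 (chr17:39846958-39848788, plus strand), at a locus known to hold ribosomal RNA sequence. AY036118 had 11.9 to 19.6 CPM in Foxp3CNS1- and 32.3 to 49.9 in Foxp3GFP in the 5 clusters that measured it, with log2 ratios from -1.56 to -1.01. Gm42418 was lower in 9 of 9 clusters, from -0.91 to -0.32, and the neighbouring Gm26917 in 9 of 9, from -1.005 to -0.33. The sources used here do not say whether the counting used the strand, so reads of AY036118 and Gm42418 may not be separable. The summed level of the 3 genes was 214 CPM in germ-free Foxp3CNS1-, 342 in germ-free Foxp3GFP, 195 in colonized Foxp3CNS1- and 223 in colonized Foxp3GFP, so the germ-free Foxp3GFP library stood highest and the other 3 closer together. This sum reads ribosomal RNA sequence in a library, and its part in the other differences was not tested.

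Gm10076 is annotated as a long noncoding RNA of 384 bases on the plus strand of chr14:105681828-105682211 (mm10) and is a near copy of the transcript of Rpl41, a ribosomal protein gene on chromosome 10. Of 383 aligned bases 381 were identical (99.5%). Both differing positions are shown, because within the aligned bases reads can be told apart between the copies only there; bases are counted from the 5′ end of the Gm10076 transcript in the GENCODE M21 annotation, the Rpl41 base is given first, and the capital marks the base of Gm10076.
Gm10076, C127T: caagtaagccagccTgtgcacctacgacg
Gm10076, G234A: agtagacctggaacAtcacctcgccgcga
The level of Gm10076 was 387 to 542 CPM in Foxp3CNS1- and 199 to 340 in Foxp3GFP over the 9 clusters, and the ranges did not overlap. The share of all genes with ranges apart is not given here. Its log2 ratio was narrow from cluster to cluster, from 0.66 (0.52 to 0.81) in cluster 2 to 0.96 (0.63 to 1.31) in cluster 3. Rpl41 moved by -0.13 to 0.07. As a share of the UMIs of the pair, Gm10076 had 3.04% to 3.35% in germ-free Foxp3GFP and 5.16% to 5.79% in germ-free Foxp3CNS1-. The colonized libraries had 4.86% to 5.74% in Foxp3GFP and 3.90% to 5.18% in Foxp3CNS1-. In all 9 clusters germ-free Foxp3GFP was the lowest of the 4 libraries. The genotype log2 ratio in colonized mice had the other sign in all 9 clusters, from -0.37 to -0.01. Since both copies share nearly all of their sequence, how reads were divided between them is uncertain.

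**Figure D1:**
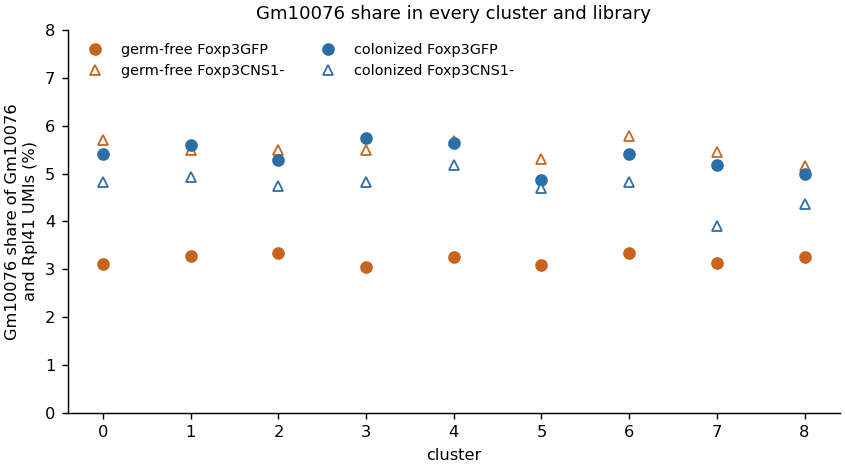
Share of Gm10076 in the UMIs of Gm10076 and Rpl41 together (percent, y axis) for clusters 0 to 8 (x axis), with 1 point per library. The germ-free Foxp3GFP library lies at 3.04% to 3.35%, below the other 3 libraries in every cluster.

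Protein-coding genes were also among those higher in every measured cluster at any size. H2-DMa encodes a subunit of H2-DM, which exchanges peptides on MHC class II molecules (mm10 chr17:34119541-34139101, plus strand). Its level was 241 CPM in Foxp3CNS1- against 92.3 in Foxp3GFP in cluster 1, 207 against 87.4 in cluster 2, 191 against 84.8 in cluster 4, 164 against 86.8 in cluster 0 and 175 against 100.01 in cluster 7. In the remaining clusters it had 184 against 133 in cluster 3, 177 against 136 in cluster 5, 174 against 132 in cluster 6 and 114 against 92.3 in cluster 8. The Foxp3CNS1- level was the higher in all 9, most so in the naive-like clusters, at log2 ratios of 1.38 (1.11 to 1.66) and 1.24 (0.99 to 1.51), and least in cluster 8, at 0.30 (-0.21 to 0.82). The colonized libraries had the same direction in 9 of 9 clusters, from 0.17 to 1.06, again with the highest ratio in cluster 1. Psmb9, an inducible proteasome subunit that lies on the same chromosome (chr17:34181987-34187764, minus strand), was higher in 9 of 9 clusters at 0.20 to 0.54, and in colonized mice in 5 of 9.

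Ppp3cc, a catalytic subunit of the phosphatase calcineurin, was higher in 8 of 8 measured clusters, at log2 ratios of 0.26 to 0.97. In cluster 2 it had 68.8 CPM against 36.1, and in cluster 0 69.1 against 40.3. Ppp3ca, which encodes another catalytic subunit, was lower in 7 of 7, at -0.45 to -0.22. In colonized mice Ppp3cc was higher in 5 of those 8 clusters and Ppp3ca was higher in 4 of 7. In the germ-free clusters with few UMIs, Ppp3cc was at -1.24 (-2.71 to 0.05) in cluster 8. Ppp3ca was at 0.28 in cluster 7 and -0.84 in cluster 8. Itgae, which encodes the integrin CD103 found on many mucosal Treg cells, was higher in 5 of 5 measured clusters, at 0.21 to 0.54. It was lower in all 5 in colonized mice, at -0.79 to -0.03. With few UMIs, germ-free clusters 1, 2, 7 and 8 were at 0.12, -0.93, 0.43 and 1.11. Itgae is among the leading genes of cluster 3, so its value there is a description.

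Several genes had a lower level in every measured cluster of both pairs of libraries. Otulin, a deubiquitinase of linear ubiquitin chains, was lower in 6 of 6 measured clusters, at -1.85 to -0.51, and in 6 of 6 in colonized mice, at -0.91 to -0.01; counting the 3 clusters with few UMIs, it was lower in 9 of 9 of both. Its level was 11.3 CPM against 40.9 in cluster 6 and 19.05 against 49.2 in cluster 0. The mitochondrial gene mt-Atp8, a subunit of ATP synthase, was lower in 9 of 9 clusters of both, at -1.32 to -0.28 and -1.34 to -0.21. The overlapping mt-Atp6 was slightly lower in each germ-free cluster, at -0.20 to -0.004, and higher in each colonized one, at 0.05 to 0.19. Tnrc6c, of the family of proteins that act with microRNA-loaded Argonaute, was lower in 8 of 8 germ-free clusters at -0.95 to -0.40, but in 4 of 8 colonized ones.

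**Figure D2:**
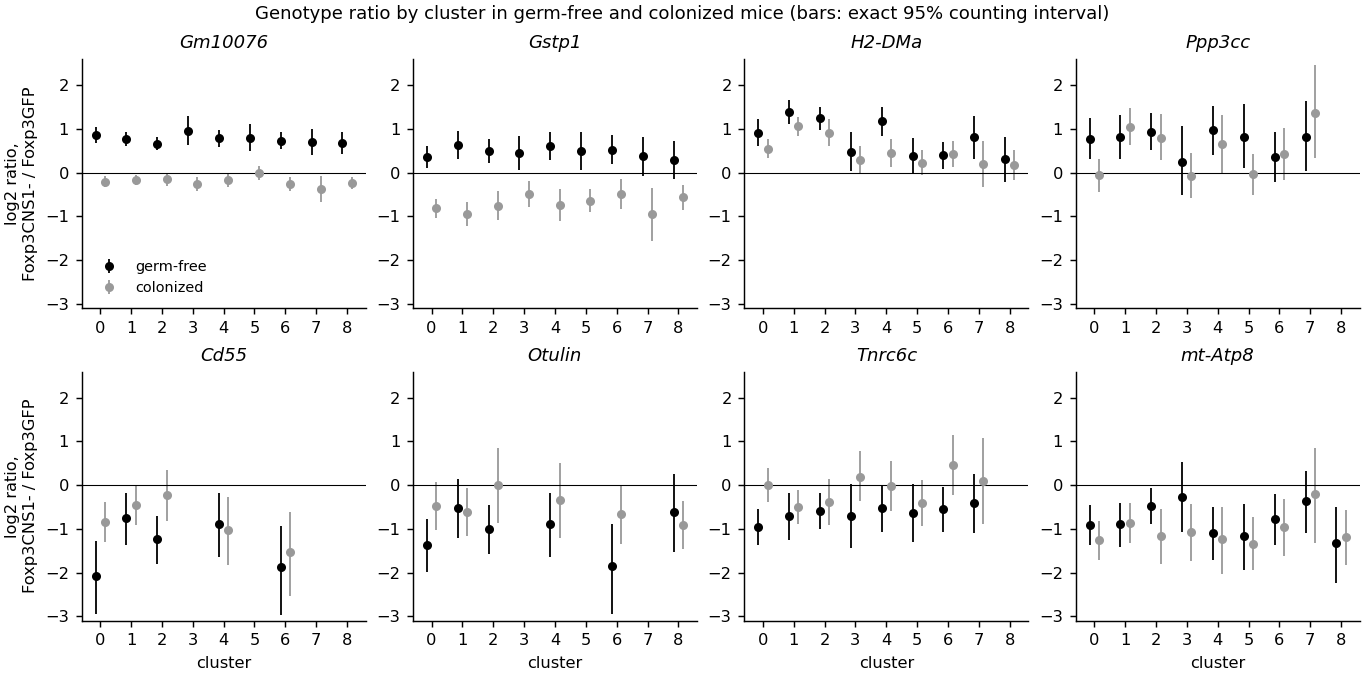
Log2 ratio of CPM, Foxp3CNS1- over Foxp3GFP (y axis), by cluster (x axis) in germ-free (black) and colonized mice (grey) for 8 genes, with exact 95% counting intervals and clusters of at least 50 germ-free UMIs shown. H2-DMa lies above 0 and Cd55, Otulin and mt-Atp8 lie below 0 in each cluster drawn of both pairs, Tnrc6c lies below 0 in each germ-free cluster drawn, and Gm10076 and Gstp1 lie above 0 in germ-free and below 0 in colonized mice.

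The overlap with the colonized pair was small. In colonized mice 128 genes, or 2.89%, were higher and 158, or 3.57%, were lower in all of the same clusters. Both pairs shared 10 genes that were higher, 6.76% of the germ-free and 7.81% of the colonized genes. They shared 10 that were lower, 9.80% and 6.33%. With opposite sign, 14 genes were higher in germ-free and lower in colonized Foxp3CNS1-, 9.46% and 8.86%, and 4 were lower and then higher, 3.92% and 3.13%. With the same and with the opposite sign, these shares of the germ-free genes lay above the 2.89% and 3.57% over all genes. The difference was not tested. Besides H2-DMa the genes higher in both included H3f3b and Castor1, and besides Cd55, Otulin and mt-Atp8 the genes lower in both included Klf13, Tle4, Iigp1 and Ifi206.

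Apart from the genes above, a small group was past 2-fold in 2 or 3 clusters. Some of them, such as Sox4 and Ptger2, were so in each of the few clusters that measured them. Genes of few UMIs could reach 50 in a cluster mainly through the library where they were high, so this is a description. Il4 encodes interleukin 4, the cytokine of type 2 and follicular helper cells (mm10 chr11:53602982-53618669, minus strand). Its level was 74.1 CPM in Foxp3CNS1- against 6.42 in Foxp3GFP in cluster 6, 38.02 against 9.94 in cluster 4, 66.2 against 33.6 in cluster 5 and 84.9 against 22.5 in cluster 0. The log2 ratios were 3.53 (2.47 to 4.80), 1.94 (1.04 to 2.91), 0.98 (0.19 to 1.83) and 1.91 (1.36 to 2.50). Because Il4 led cluster 0, its value there is a description. Clusters 4, 5 and 6 reached 50 UMIs mainly through Foxp3CNS1-, with 37, 55 and 72 UMIs against 15, 18 and 8. Their values are a description as well. In cluster 6 the UMIs lay in 47 Foxp3CNS1- and 6 Foxp3GFP cells, of 372 and 421. The 5 clusters with few Il4 UMIs held 69 against 27, and Il4 was higher in Foxp3CNS1- in 9 of 9 clusters. In the naive-like cluster 2 it had 11 UMIs against 1, and in cluster 1 it had 4 against 0, where 3 UMIs would have been 1.54 CPM. In colonized mice Il4 was higher in 8 of 9 clusters but at lower levels, 1.99 to 30.3 CPM in Foxp3CNS1-.

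Gpm6b, a membrane proteolipid, and Slc9a9, a sodium/proton exchanger of endosomes, were past 2-fold in the same 3 clusters as Il4. Gpm6b, also a leading gene of cluster 0, had 103 CPM in Foxp3CNS1- against 40.9 in cluster 6, 52.4 against 22.5 in cluster 4 and 91.4 against 45.1 in cluster 0. Slc9a9 had 46.3 against 15.2 in cluster 6, 34.9 against 10.6 in cluster 4 and 49.0 against 19.8 in cluster 0. In colonized mice the log2 ratios in clusters 0, 4 and 6 were 0.52, 1.14 and 0.79 for Gpm6b and 0.84, 0.004 and 0.76 for Slc9a9. In the Treg-like cluster 3 germ-free Gpm6b was at -0.42 (-1.12 to 0.29). Mapre2 and Nav2 were past 2-fold in clusters 4 and 6, and Ptger2, a prostaglandin E2 receptor, in clusters 0 and 6.

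Among the genes that were lower in several clusters, Sox4, a transcription factor, had 19.5 CPM against 50.3 in cluster 2, 9.96 against 26.7 in cluster 1 and 8.24 against 39.3 in cluster 6. The other 6 clusters had too few Sox4 UMIs and no common direction, with 30.3 against 5.59 CPM in cluster 8, a log2 ratio of 2.44 (0.82 to 4.47). Sox4 reached 50 UMIs in clusters 1 and 6 mainly through Foxp3GFP, with 11 and 8 UMIs against 52 and 49. Its values there are a description. In colonized mice Sox4 was at -0.71 and -0.37 in clusters 1 and 2 but at 2.54 (0.77 to 4.94) in cluster 6. The antiviral interferon-stimulated gene Ifit1 was past 2-fold lower in both naive-like clusters, at -1.20 and -1.01, where colonized mice had -0.03 and 0.22. S100a4, a calcium-binding protein of effector and memory cells, had 48.1 CPM against 161 in cluster 5 and 28.2 against 60.2 in cluster 3. In cluster 3, however, 3 Foxp3GFP cells held 73.3% of its UMIs, and the colonized values were -0.60 in cluster 5 and 0.15 in cluster 3. Naa15, a subunit of an N-terminal acetyltransferase, was past 2-fold lower in clusters 3 and 7, where colonized mice had -0.18 and 0.14.

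**Figure D3:**
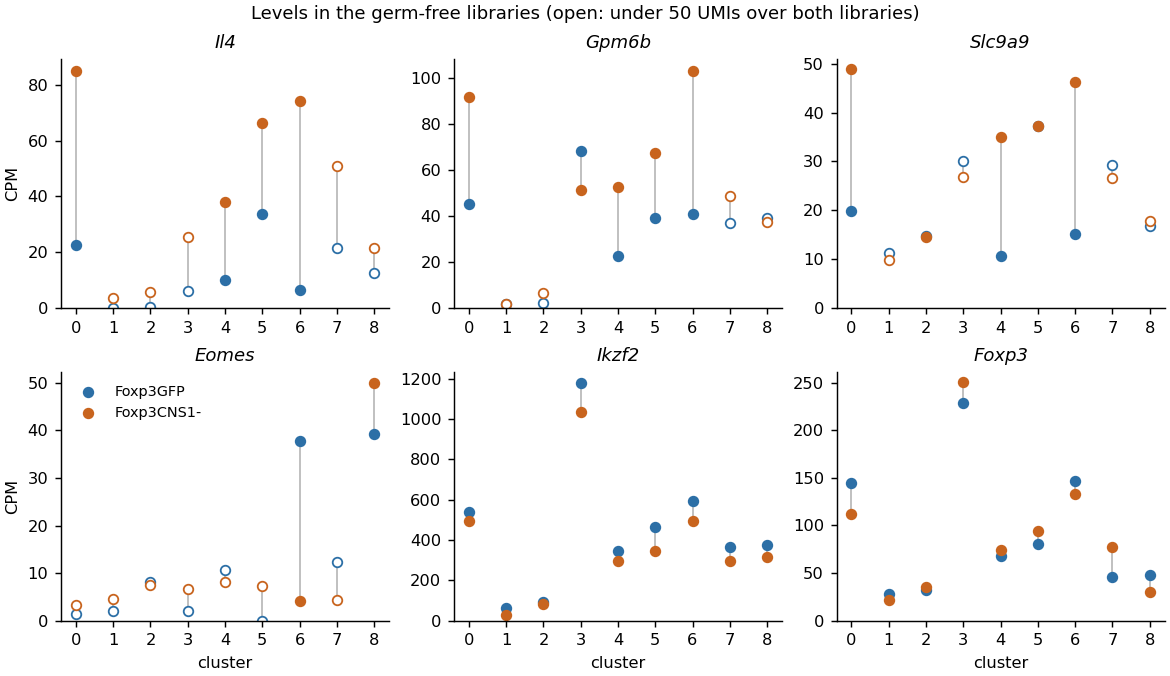
CPM (y axis, linear, from 0) of 6 genes in clusters 0 to 8 (x axis) of the germ-free libraries, Foxp3GFP in blue and Foxp3CNS1- in orange, with open symbols where a gene had under 50 UMIs over both libraries. Il4 is higher in Foxp3CNS1- in every cluster, Eomes is 4.12 CPM in Foxp3CNS1- against 37.7 in Foxp3GFP in cluster 6 (colonized mice, not drawn, had 4.43 and 4.02), Ikzf2 is lower in Foxp3CNS1- in every cluster, and Foxp3 has no common direction. Eomes reached 50 UMIs in cluster 6 mainly through Foxp3GFP, and its value there is a description.

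The clusters are taken in turn, with the genes whose counting interval lay farthest from no change. Of the 27 pairs of gene and cluster named as higher by this rule, 18 were also higher in colonized Foxp3CNS1- in the same cluster. Of the 27 named as lower 20 were also lower. The same share over all measured pairs is not given here, and some genes are named in several clusters. No replication is read from these counts. Genes near the UMI minimum for a measured gene could reach it mainly through the library where they were high. Their values in the clusters below are a description. In cluster 0, 0.469% of 5970 measured genes were past 2-fold higher in Foxp3CNS1- (28 genes) and 0.218% past 2-fold lower (13). Apoe, an apolipoprotein of macrophages, had 43.5 CPM against 6.83, but 3 Foxp3CNS1- cells held 66.3% of its UMIs. Myo6, an unconventional myosin, had 26.7 against 4.78 CPM over 29 and 5 cells. Myo6 reached the UMI minimum mainly through Foxp3CNS1-, with 49 UMIs against 7, so its value is a description. The genes lowest in Foxp3CNS1- were Cd55, AY036118 and Otulin.

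The naive-like clusters had more genes lower than higher. In cluster 1, 0.162% (8) were past 2-fold higher and 0.406% (20) lower, and in cluster 2, 0.119% (7) and 0.458% (27). H2-DMa led the higher genes of both. Hspbap1 and Chchd5 followed in cluster 1, at 28.1 against 10.3 and 32.6 against 14.9 CPM. In cluster 2 Zbtb4 had 28.2 against 13.3 CPM and Czib 41.2 against 20.4. Riok2, a kinase of ribosome assembly, was lower in cluster 1 at 8.15 against 25.1 CPM. Ikzf2 encodes Helios, a transcription factor high in Treg cells, and was lower there at 29.9 against 63.6 CPM, a log2 ratio of -1.09 (-1.69 to -0.53). Helios was lower in all 9 clusters, but in the other 8 by -0.43 to -0.09. In cluster 3, the cluster with the highest level, it had 1034 against 1179 CPM. In colonized mice the cluster 1 value was -1.07, and 6 of 9 clusters were lower.

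The Treg-like clusters differed in their lists. In cluster 3, 0.409% (14) of genes were past 2-fold higher and 0.263% (9) lower. Its top gene, Spp1, which encodes osteopontin, had 176 UMIs in Foxp3CNS1-, all in 3 cells, and 0 in Foxp3GFP, at least 39.3-fold higher against a floor of 3 counts per library. Cd160, a coinhibitory receptor, had 61.9 against 22.1 CPM over 30 and 10 cells. Ankrd55 had 56.5 against 18.1 over 37 and 9 cells. Cd160 and Ankrd55 reached the UMI minimum mainly through Foxp3CNS1-, with 46 and 42 UMIs against 11 and 9. Their values are a description. Dnajc2, a ribosome-associated cochaperone, was lower at 40.3 against 102 CPM, and Donson, a replication fork protein, at 25.6 against 66.3.

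In cluster 6, 0.473% (22) were past 2-fold higher and 0.366% (17) lower. Beside Il4, the higher genes were Asb2, an adaptor of a ubiquitin ligase, at 49.4 against 14.4 CPM, and Smco4, at 151 against 61.0 CPM. Eomes, a T-box transcription factor of memory and type 1 cells, was 4.12 against 37.7 CPM, a log2 ratio of -3.19 (-5.13 to -1.74). Its Foxp3CNS1- UMIs, 4 in all, came from 1 cell, and 17 Foxp3GFP cells held 47. The colonized libraries had 4.43 CPM in Foxp3CNS1- and 4.02 in Foxp3GFP in this cluster, so of the 4 libraries germ-free Foxp3GFP stood apart. In cluster 8, the other cluster that measured it, Eomes was at 0.35. Stmn1, a regulator of microtubules that is high in dividing cells, had 9.27 against 36.9 CPM.

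Cluster 4 had 0.531% (26) past 2-fold higher and 0.470% (23) lower. Xcl1, a chemokine, had 47.3 against 3.97 CPM, and 3 cells held 89.1% of the Foxp3CNS1- UMIs. Hist1h2ap, a histone gene, had 104 against 25.8 CPM, and 3 cells held 88.1% of the Foxp3CNS1- UMIs; without the cells above the 98th percentile of UMIs its log2 ratio changed from 2.01 to -0.79. The MHC class II gene H2-Aa had 36 UMIs in 4 cells against 17 in 3. Lower were Nin, a centrosome protein, at 13.4 against 35.8 CPM, Irf8, an interferon regulatory factor, at 12.3 against 35.1 CPM over 11 and 30 cells, and Bach2, a repressor that restrains effector programmes, at 19.5 against 46.4 over 17 and 62 cells. Bach2 was lower in 5 of 5 measured clusters, at -1.25 to -0.15. With few UMIs, clusters 3, 5, 7 and 8 were at 0.68, -1.37, -0.997 and 0.06.

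In cluster 5, 0.503% (17) were past 2-fold higher and 0.325% (11) lower. Lyz2, the lysozyme of myeloid cells, had 75 UMIs in 3 Foxp3CNS1- cells against 1. The summed myeloid markers reached their highest Foxp3CNS1- level in this cluster, 297 CPM, a sum that holds Lyz2. Fbxl6 had 60.2 against 22.4 CPM and Exosc8, a subunit of the RNA exosome, 134 against 65.4. Sostdc1 and Nrn1, both known from follicular helper and follicular regulatory or anergic cells, were lower, at 36.1 against 112 and 19.2 against 72.8 CPM, each from 10 Foxp3CNS1- and 9 Foxp3GFP cells. In cluster 0 Sostdc1 ran the other way, at 143 against 79.9 CPM from 40 and 27 cells.

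Cluster 7 had 0.371% (10) past 2-fold higher and 0.704% (19) lower. Myh9, the heavy chain of a non-muscle myosin, was lower at 144 against 308 CPM over 51 and 131 cells. Cbl, a ubiquitin ligase of receptor signalling, and Chd1, a chromatin remodeller, both had 33.2 against 78.5 CPM. Higher were Actr10, of the dynactin complex, at 111 against 47.7 CPM, and Tmed7, at 82.005 against 33.9. The highest-ranked gene in the other direction, Hist1h2ap, had 97.98% of its Foxp3CNS1- and 96.03% of its Foxp3GFP UMIs in 3 cells each, and changed sign to -2.48 without the cells of most UMIs. In this cluster the median depth was 2275.5 UMIs in Foxp3CNS1- and 1818.5 in Foxp3GFP, the widest relative gap among the clusters, and its part was not tested.

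The proliferating-like cluster 8 had 0.185% (6) past 2-fold higher and 0.646% (21) lower. Nkg7, a protein of cytotoxic granules, had 109 against 30.8 CPM from 6 and 7 cells, and Xcl1 had 135 against 47.6, all from 3 and 5 cells. With equal weight per cell Xcl1 changed sign, to -0.97. Ifitm2 had 73.04 against 35.0 CPM. Anxa2 had 64.1 against 150 CPM over 15 and 27 cells, Lag3, an inhibitory receptor, 109 against 224 over 22 and 37 cells, and Hbs1l, a ribosome rescue factor, 26.7 against 79.7 CPM.

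**Figure D4:**
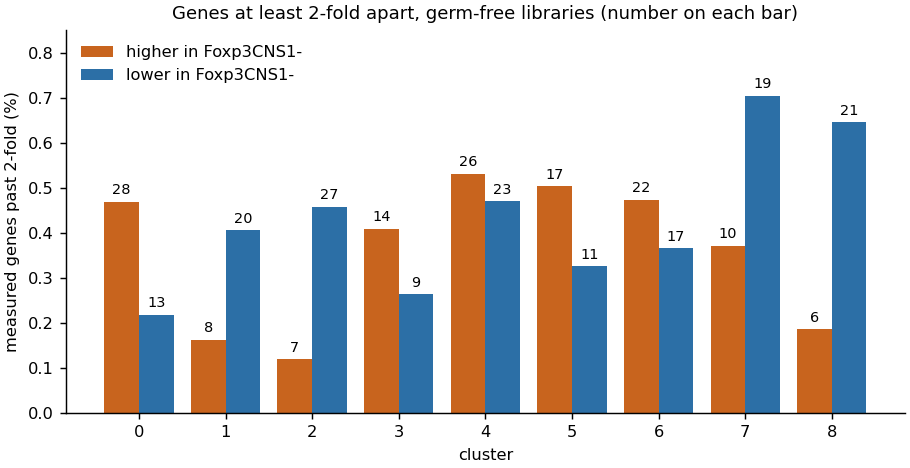
Share of measured genes at least 2-fold higher (orange) or lower (blue) in germ-free Foxp3CNS1- (percent, y axis) in each cluster (x axis), with the number of genes on each bar. The share lower is above the share higher in clusters 1, 2, 7 and 8 and below it in the others.

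Changes found in 1 cluster were taken as genes measured in at least 5 clusters, at least 2-fold in 1 and under 1.5-fold in the other measured clusters. Clusters with under 50 UMIs of a gene did not enter, and may hold a like change. These were 79 genes, 1.78% of the 4428, 34 higher and 45 lower. Cluster 7 held 15 of them, 14 lower, clusters 4 and 6 held 13 each, cluster 5 held 11 with 9 higher, and cluster 0 held none. For 70 of the 79 the exact interval of the difference between that cluster and the pooled others left out 0, which is a description because the difference had picked the genes. After thinning to 1500 UMIs 38 genes met the rule, 2 of them among the 79, among cells without a Foxp3 UMI 63 met it, 14 among the 79, and among cells without an immunoglobulin UMI 47 met it, 0 among the 79.

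The 10 genes whose interval of the difference lay farthest from 0 were all lower in Foxp3CNS1- in their own cluster. Eea1, a tether of early endosomes, had 56.5 against 125 CPM in cluster 5 and 54.8 against 42.6 in the other clusters, a difference in log2 ratio of -1.51 (-2.11 to -0.91). Ctdsp2, a phosphatase, had 10.3 against 27.1 in cluster 2 and 29.2 against 27.7 elsewhere, a difference of -1.47 (-2.35 to -0.64). Dstn, an actin-severing protein, had 19.6 against 55.9 in cluster 8 and 23.5 against 21.2 elsewhere. Snapin, which takes part in vesicle fusion, had 21.7 against 51.3 in cluster 1 and 51.1 against 49.6 elsewhere. Dnajc2 in cluster 3, Krtcap3 and Dhx36 in cluster 2, Ubald1 in cluster 1, Myh9 in cluster 7 and Pde6d in cluster 5 completed them, with differences from -1.34 to -0.93. Outside their own cluster the pooled log2 ratios of these 10 genes lay between -0.17 and 0.36. Single clusters with few UMIs could lie further off. In cluster 7 Ubald1 was at -1.06 (-2.19 to -0.04) and Krtcap3 at 1.77 (0.52 to 3.18). Ikzf2 in cluster 1 was next, with a difference of -1.01 (-1.62 to -0.44).

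The gene lists were read as medians of log2 ratios, beside the share of all measured genes above 0, which was 56.2% in cluster 0, 51.0% in cluster 1, 50.7% in cluster 2, 47.3% in cluster 3, 58.1% in cluster 4, 49.5% in cluster 5, 58.4% in cluster 6, 53.4% in cluster 7 and 48.9% in cluster 8. Over all 9765 genes with at least 50 UMIs the common ratio had a median of 0.019, with 54.5% above 0. These shares are of the germ-free pair. The share over all genes in colonized mice is not given here, so the colonized counts of lists below are a description.

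Genes of naive cells had a median below 0 in every cluster. The list's median lay below 0 in 9 of 9 clusters, from -0.50 in cluster 0, where 12 of 15 members were lower, to -0.07 in cluster 3, where 4 of 8 were. By the common ratio 13 of 15 were lower, with a median of -0.20, and 0 were 2-fold apart. S1pr1, the receptor for egress from lymph nodes, was among them at -0.30, Dapl1 at -0.33 and Lef1, a transcription factor, at -0.21. Ccr7, at -0.02, and Igfbp4, at 0.02, lay near 0. Because Igfbp4, Dapl1, Lef1 and S1pr1 are among the leading genes of clusters 1 or 2, the list is a description there. In colonized mice the median of the list was -0.04.

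Genes of MHC class I and peptide loading were above 0 in 9 of 9 clusters, at 0.04 to 0.26, with 14 of 17 members higher by the common ratio, a median of 0.13 and no member past 2-fold. Nuclear genes of oxidative phosphorylation had 28 of 32 members higher, with a median of 0.09, and mitochondrially encoded genes had 11 of 13 lower, with a median of -0.04. Cell cycle genes had 20 of 23 higher at 0.20, and 17 of 23 in the proliferating-like cluster at 0.24. Without the cells above the 98th percentile of UMIs the cell cycle median was 0.09. The MHC class II list had a common median of 0.80 with 8 of 9 higher, which was 0.03 without those cells. In colonized mice the medians were 0.01 for MHC class I (9 of 17 higher), 0.06 for oxidative phosphorylation (31 of 32), 0.006 for mitochondrially encoded genes (7 of 13), 0.08 for the cell cycle (21 of 23) and 0.05 for MHC class II (7 of 9).

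The follicular helper (Tfh) list differed between clusters. It was above 0 in cluster 4, with 13 of 14 members higher and a median of 0.45, in cluster 6, with 13 of 14 and 0.42, and in cluster 0, with 12 of 15 and 0.26. The colonized medians of these 3 clusters were 0.13, 0.45 and 0.10. In germ-free mice these 3 clusters also had the highest shares of all measured genes above 0, 58.1%, 58.4% and 56.2%. Because Il4 led cluster 0, the list is a description there. In cluster 2 it had 7 of 9 members lower with a median of -0.20, and in cluster 8 it had 8 of 10 lower at -0.22. The Th2 list, which like the Tfh list holds Il4, had few measured members, 2 to 4 a cluster, and medians of -0.04 to 0.61. By the common ratio its 5 members were all higher, among them Gata3, the factor of type 2 cells, at 0.23, while 2 of the 5 were higher in colonized mice. Effector and memory genes had medians of -0.20 to 0.30, with 10 of 10 higher in cluster 2 and 9 of 10 lower in cluster 8.

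Of the lists of the pathway that CNS1 is known to serve, none had the same direction in every cluster. Treg core genes were above 0 in 4 clusters and below in 5, from -0.29 in clusters 1 and 5 to 0.36 in cluster 7, and 13 of 18 were lower by the common ratio, with a median of -0.07. The peripherally induced Treg list ran from -0.28 to 0.19, with 8 of 10 higher by the common ratio at 0.20. That median was 0.052 with cells thinned to 1500 UMIs and 0.098 with equal weight per cell, and in colonized mice 2 of 10 were higher at -0.21. Of the TGF-beta pathway 14 of 19 members were lower by the common ratio, at a median of -0.11. Its cluster medians were below 0 in every cluster but 4 and 5, from -0.19 in cluster 8 to 0.16 in cluster 5. The colonized medians were -0.06 for Treg core, with 7 of 18 higher, and -0.07 for the TGF-beta pathway, with 5 of 19 higher. Smad7, the inhibitory Smad that TGF-beta induces, was lower in 7 of 8 clusters with a common value of -0.43, and Skil, another feedback inhibitor, was lower in 6 of 8 at -0.25. The receptor genes Tgfbr1 and Tgfbr2 were at 0.02 and -0.03, and Tgfb1 was at -0.07. Genes of T cell receptor signalling had medians of -0.23 to 0.05, and interferon-stimulated genes of -0.25 to 0.13. In colonized mice 0 of 32 interferon-stimulated genes were higher by the common ratio, with a median of -0.26, where germ-free mice had 10 of 32 and -0.06.

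**Figure D5:**
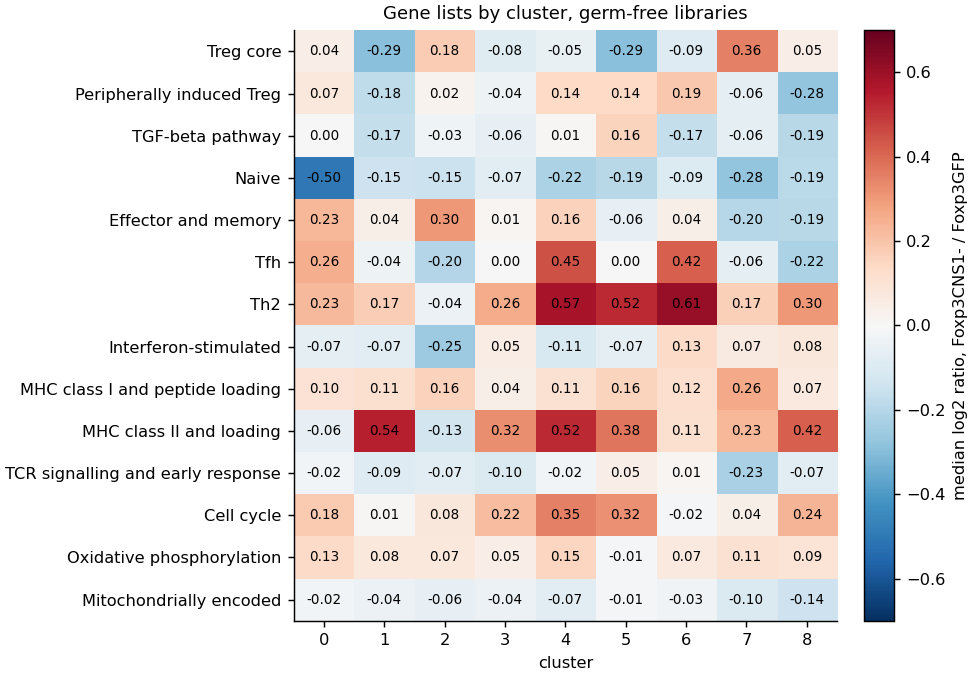
Median log2 ratio of CPM, germ-free Foxp3CNS1- over Foxp3GFP, of 14 gene lists (rows) in clusters 0 to 8 (columns), by colour and number. The naive list is below 0 and the MHC class I list above 0 in all 9 clusters, and the Tfh list is above 0.2 in clusters 0, 4 and 6 alone.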

How the data were processed

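The deposited matrix holds UMI counts per cell and gene, made by the authors with Cell Ranger and Scanpy 1.5.1 on mm10, per the submitters' processing notes. The sources used here give no version of Cell Ranger, no cell filters and no doublet removal. It had 17478 cells and 13314 genes, with 0 values that were not whole. A second deposited table gave library, filter mark and cluster, and 4 of its columns were not used; 227 cells without a line there and the germ-free cells marked as filtered out (71 and 48) were left out.

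Counts were summed per library and cluster and scaled to CPM (Python 3.11.15, numpy 2.4.6, scipy 1.17.1, pandas 2.3.3). Against a count of 0 a floor of 3 counts per library stood in. Genes with a ratio in at least 5 clusters entered the rules for every cluster (1.5-fold in each) and for 1 cluster. The latter asked for 2-fold in 1 cluster and under 1.5-fold in the others that measured the gene. Named genes were up to 3 per cluster and direction and 10 of the 1-cluster genes, ranked by the interval bound nearest to no change. Receptor segments and ribosomal protein, mitochondrial, predicted and some sex-linked genes were not ranked. Genes on chromosome X were not all left out: Wdr45, for one, was ranked. Other genes were chosen as examples after their values were seen. Thinning to 1500 UMIs kept 3142 Foxp3CNS1- and 3527 Foxp3GFP cells. Gene coordinates are from GENCODE M21. The members, lists and rules were chosen with earlier results of these data known. Certain genes are not reported here. The calculation was tested on simulated data.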

Additional observations from a re-analysis of the deposited data

Results flagged for a closer look

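In 18 genes the genotype ratio had opposite signs in germ-free and colonized mice in every cluster that measured them. Those given here are the 5 that also differed by at least 1.2-fold in each germ-free cluster, a limit chosen after seeing the data; the difference was not tested. The common log2 ratio of Foxp3CNS1- over Foxp3GFP was 0.76 in germ-free and -0.19 in colonized mice for Gm10076, 0.62 and -0.65 for Snhg9, a host gene of small nucleolar RNAs, and 0.55 and -0.65 for Polr2l, a subunit of RNA polymerases. It was 0.48 and -0.71 for Gstp1, a glutathione transferase, and 0.47 and -0.35 for Erh. In the order germ-free Foxp3GFP, germ-free Foxp3CNS1-, colonized Foxp3GFP and colonized Foxp3CNS1-, Gstp1 had 118, 169, 143 and 90.5 CPM, Polr2l 59.4, 85.4, 102 and 66.1, Erh 159, 218, 196 and 158, and Snhg9 22.6, 34.3, 36.02 and 23.3. Of the 4 libraries, germ-free Foxp3GFP was the lowest in 3 of these 5 genes, Gm10076 (286 CPM), Snhg9 and Polr2l, and colonized Foxp3CNS1- was the lowest in Gstp1 and Erh.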

How the results depend on the processing

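No paired analysis was possible because each group was 1 library. The counts were 138 and 160 pairs of gene and cluster past 2-fold higher and lower, 1 and 2 genes higher and lower in every cluster, and 79 genes in 1 cluster. In that order, a minimum of 20 UMIs gave 1148, 1196, 2, 1 and 333, and one of 200 UMIs gave 7, 2, 1, 0 and 1. Thinning each cell to 1500 UMIs gave 110, 61, 0, 1 and 38, equal weight per cell 210, 215, 1, 0 and 118, cells without a Foxp3 UMI 134, 140, 1, 0 and 63, and cells without an immunoglobulin UMI 118, 80, 1, 0 and 47. A fold of 3 gave 17 and 12 pairs. In every cluster, a fold of 2 gave 0 higher and 1 lower, and asking for all 9 clusters gave 1 and 0. Chosen after seeing the data, a limit between no change and 1.5-fold gave 3 and 6, and any size gave 148 and 102. The other alternatives kept all counts within 1.5 times. List medians that moved by over 0.1 on the log2 scale were, without Foxp3 UMIs, Treg core (-0.18), TGF-beta (-0.24) and MHC class II (0.17); after thinning, peripherally induced Treg (0.052), Tfh (0.26), MHC class II (0.18) and cell cycle (0.093); with equal weight, peripherally induced Treg (0.098) and MHC class II (0.39); without immunoglobulin UMIs, effector and memory (0.12), Th2 (0.35), MHC class II (0.23) and cell cycle (0.38); without the 3 top cells of each gene, TGF-beta (-0.21), MHC class II (0.092) and cell cycle (0.088); without the cells above the 98th percentile of UMIs, MHC class II (0.029) and cell cycle (0.086). At 20 and 200 UMIs MHC class II was 0.66 and 0.12. Of the values of named genes 434 stayed within their error, 10 moved and 3 changed sign: Hist1h2ap in clusters 4 (-0.79) and 7 (-2.48) without the cells above the 98th percentile, and Xcl1 in cluster 8 (-0.97) with equal weight. The cause was not tested. Fewer cells and UMIs enter the subsets, which by itself leaves fewer genes measured.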

Other observations

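The 102 genes that were lower in every measured cluster at any size included 14 on chromosome 1, among them Cd55, which is 13.7% of them, where chromosome 1 held 5.85% of the genes measured in at least 5 clusters. Of the 148 genes that were higher, 5 were on chromosome 1, or 3.38%. Chromosome 1 was singled out after its values were seen, and the difference was not tested. Among the lower genes chromosome 4 held 10.8% against 6.01% of those measured, and chromosome 6 held 8.82% against 5.10%. Mitochondrially encoded genes held 2.94% against 0.271%. Other chromosomes lay below their share, such as chromosome 10 with 1.96% against 5.13%.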
